A study of Mus musculus with 10 samples.

Results

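The R-spondins, their LGR receptors and the membrane ligases that these receptors remove were examined in the anterior fontanelle (AF) as the 9 genes *Rspo1*, *Rspo2*, *Rspo3*, *Rspo4*, *Lgr4*, *Lgr5*, *Lgr6*, *Znrf3* and *Rnf43*, chosen by gene symbol from the 23080 genes of the count table. All 9 were listed, and 8 had enough counts to be tested together with 16267 genes in all. *Rspo4* was removed by the filter on low counts. The AF is the sheet of fibrous tissue between the frontal and parietal bones of the newborn skull. At embryonic day E18.5 the excised piece held suture and bone, skin and brain having been removed, and its total RNA was sequenced in bulk in 5 control and 5 mutant libraries. By label the controls were WT and the mutants NCC (neural crest cell) Fgfr2 KO. The mutants were Wnt1-Cre with Fgfr2fl/fl, and the study also describes its controls as littermates and as Fgfr2 fl/fl. Wnt1-Cre drives Cre recombinase in neural crest cells, which form the frontal bones and the AF mesenchyme, so that blood, vessel and mesoderm-derived cells of the same dissection kept an unrecombined receptor gene. Whether a library came from a single embryo or from a pool was not stated, and p-values measure the spread between these libraries. In bulk tissue, fewer cells of a type and less RNA per cell cannot be told apart.

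R-spondins are secreted proteins that make cells more responsive to WNT ligands. ZNRF3 and RNF43 are transmembrane ubiquitin ligases that take Frizzled and LRP receptors off the cell surface, and an R-spondin held by LGR4, LGR5 or LGR6 draws the ligase away, so that the WNT receptors stay. *Lgr5* and *Lgr6* are widely used as markers of stem and progenitor cells in epithelia, and *Lgr5*, *Znrf3* and *Rnf43* are themselves transcriptional targets of WNT/β-catenin signaling in many tissues.

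Depth was 20774667 to 28515434 counts per library, of which 18.7% to 33.6% fell on ribosomal RNA genes, and replicates of a group correlated across genes with r from 0.955 to 0.98. Levels are given as CPM, the counts of a gene scaled to a common library size after TMM normalization. Total *Fgfr2*, the receptor gene targeted by the cross, had its higher level in the mutant-labelled libraries. It was at 200.2, 234.6, 175.8, 195.4 and 191.6 CPM in control-labelled replicates 1 to 5 and at 299.2, 273.4, 324.8, 338.3 and 356.7 CPM in mutant-labelled replicates 1 to 5, with a log2 fold change of 0.67 ± 0.090 (SE; edgeR's quasi-likelihood test with Benjamini-Hochberg adjustment over all genes tested, adjusted p = 0.0487). The count sums all transcripts of the locus, cannot separate a recombined from an intact allele, and shares exon bases with *Ctbp2* on the same strand. The paper describes the floxed allele as giving a functionally null receptor, so this total does not check the labels. Libraries are therefore called control-labelled or mutant-labelled, and every direction below is one by label. *Xist* was present in 3 libraries of each group and Y-linked transcripts in the other 2.

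Promoters are shown for the pair of receptors that together made up most of the LGR transcripts, *Lgr4* and *Lgr6*, since both had their lower mean in the mutant-labelled libraries. The sequences are the 250 bases before the annotated gene start in RefSeq (GRCm38.p6), read 5′ to 3′ along the gene. Capitals mark matches to a CCAAT box (CCAAT) or a GC box (GGGCGG), each searched on both strands. The *Lgr6* window is chr1:135105277-135105526 on the minus strand and the *Lgr4* window is chr2:109917397-109917646 on the plus strand.
Lgr6: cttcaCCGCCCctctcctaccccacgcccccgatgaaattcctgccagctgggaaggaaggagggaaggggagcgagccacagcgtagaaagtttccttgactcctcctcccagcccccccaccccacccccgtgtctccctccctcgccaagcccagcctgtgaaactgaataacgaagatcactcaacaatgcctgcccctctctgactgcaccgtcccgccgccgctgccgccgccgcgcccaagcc
Lgr4: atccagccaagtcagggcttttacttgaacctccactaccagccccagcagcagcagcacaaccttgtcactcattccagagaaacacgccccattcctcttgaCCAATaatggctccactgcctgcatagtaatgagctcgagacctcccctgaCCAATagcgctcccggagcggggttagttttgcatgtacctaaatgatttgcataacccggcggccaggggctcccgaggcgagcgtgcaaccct
The *Lgr6* window held a single GC box, written CCGCCC on this strand, with its first base 245 bases before the start, no CCAAT box, and a GC content of 65.2%. The *Lgr4* window held CCAAT at 146 and at 95 bases before the start, no GC box, and a GC content of 55.6%. Among 32851 promoter windows of the same length, 33.85% held a CCAAT box, 10.1% held at least 2 and 32.7% held a GC box. Letters of the TCF/LEF site, through which β-catenin acts (CTTTG with A or T as each of the next bases, a site of 7, on either strand), were in none of the 6 windows of the 5 genes with an entry (*Rspo1*, *Rspo4*, *Lgr4*, *Lgr6* and *Rnf43*, which has 2) and in 14.8% of all windows. These matches describe the letters only.

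No member passed an adjusted p of 0.05 in edgeR's quasi-likelihood test, against 3 genes (0.0184%) of all tested. *Lgr4*, *Lgr5* and *Lgr6* of the 8 tested had an unadjusted p under 0.05, against 7.49% of all genes tested, with *Lgr5* at a higher mean by label (3.68% of all genes were higher at this level) and *Lgr4* and *Lgr6* at a lower (3.82%). DESeq2's Wald test passed 1 of the 8, *Lgr6*, against 0.615% of the genes it tested. The groups did not overlap for 1 member, again *Lgr6*, against 1.48% of all genes. All 3 receptors were among the genes with a low unadjusted p, and none of the tested ligands or ligases was. *Lgr5* and *Lgr6* were already known to move apart in these libraries, so these counts are a description.

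**Figure D1:**
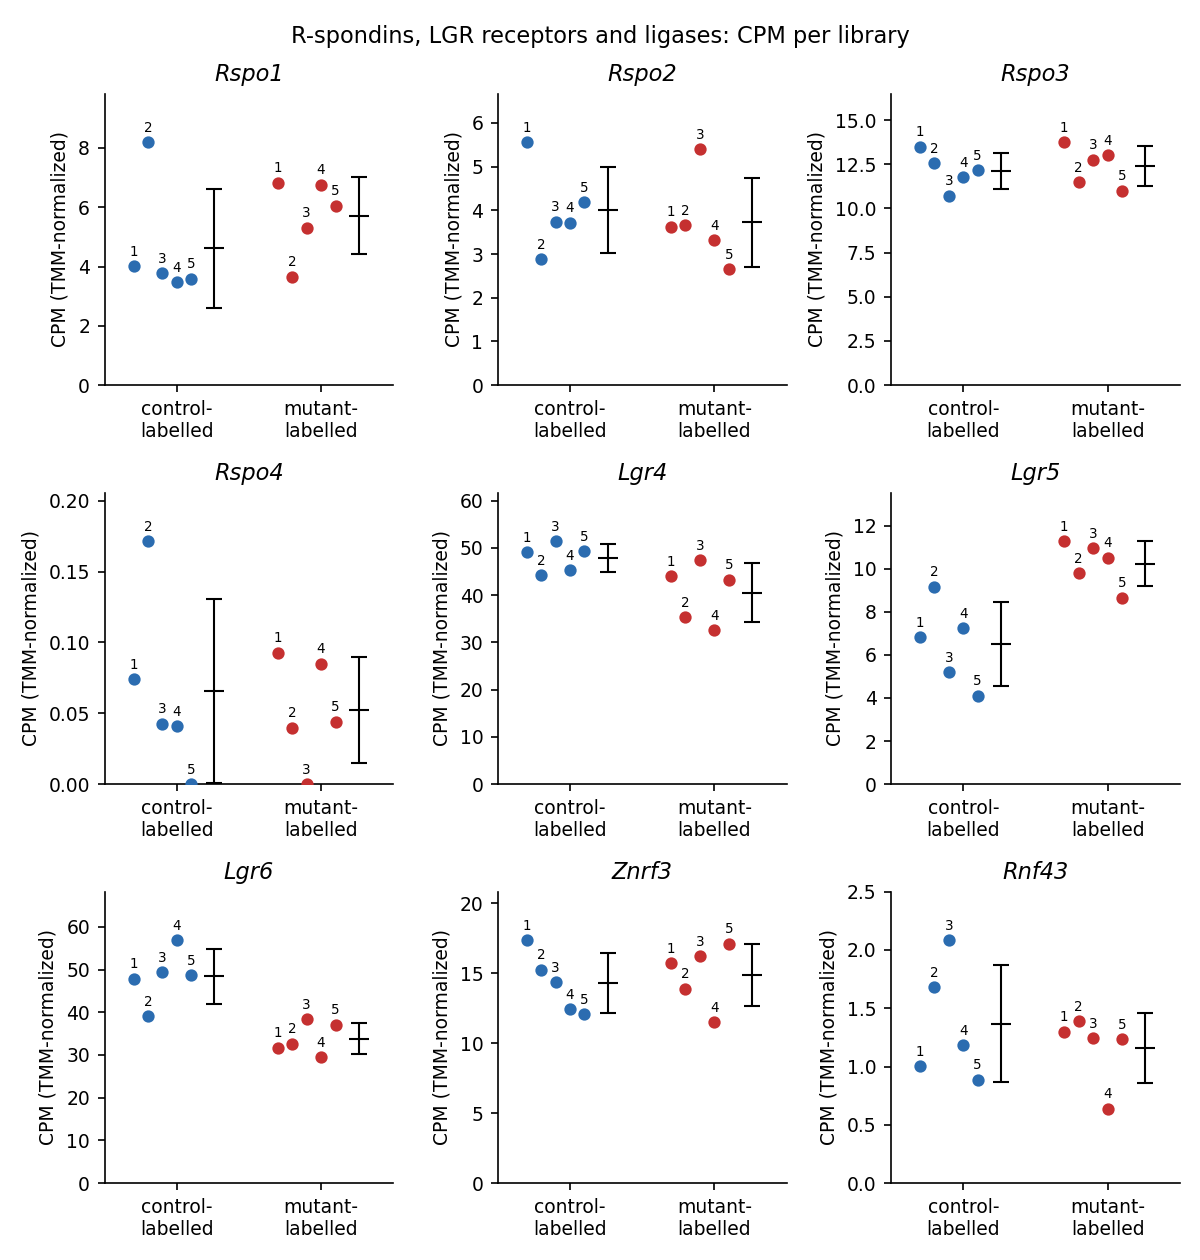
TMM-normalized CPM (vertical axes, each from 0) of the 9 genes in the 5 control-labelled (blue) and 5 mutant-labelled (red) libraries, with replicate numbers beside the points and black bars for the mean ± SD. The *Lgr6* points of the groups are separate, *Lgr5* overlaps through control-labelled replicate 2, and the ligands and ligases overlap broadly.

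The most abundant ligand was *Rspo3*, on chromosome 10 from 29452416 to 29535867 (minus strand, GRCm38), an R-spondin also known for its role in vessel and bone development. Its level was 13.5, 12.55, 10.7, 11.8 and 12.2 CPM in control-labelled replicates 1 to 5 and 13.75, 11.5, 12.75, 13.02 and 11 CPM in mutant-labelled replicates 1 to 5. The ranges of the groups overlapped over most of their length. The means were 12.1 ± 1.02 and 12.4 ± 1.13 CPM (SD, n = 5 each). The log2 fold change was 0.03 ± 0.086 (SE; adjusted p = 0.959 by edgeR's quasi-likelihood test). The spread between replicates (coefficient of variation 8.41% and 9.13%) exceeded the 5.78% that counting error alone gives a library at the mean count of this gene. Part of its exons overlap the opposite-strand gene *Gm48159*, and the use of strand in counting was not given in the sources used here.

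*Rspo1*, on chromosome 4 from 124986430 to 125009099 (plus strand), best known as a factor of ovary determination and a growth factor of the gut, was the most variable tested member among the control-labelled libraries. Control-labelled replicates 1 to 5 held 4.003, 8.20, 3.78, 3.47 and 3.59 CPM, and mutant-labelled replicates 1 to 5 held 6.83, 3.66, 5.31, 6.77 and 6.05 CPM. A single library set the control spread, since replicate 2 was above every mutant-labelled library while the other control-labelled libraries were below 4 of the 5 mutant-labelled ones. The means were 4.61 ± 2.02 and 5.72 ± 1.31 CPM (log2 fold change 0.31 ± 0.258, SE; edgeR adjusted p = 0.821, unadjusted p = 0.261). Without control-labelled replicate 2 the log2 fold change was 0.63 and the unadjusted p fell under 0.05.

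*Rspo2*, on chromosome 15 from 43020794 to 43170826 (minus strand), a ligand needed for limb and craniofacial development, was at 5.56, 2.88, 3.74, 3.72 and 4.18 CPM in control-labelled replicates 1 to 5. In mutant-labelled replicates 1 to 5 it was at 3.62, 3.66, 5.39, 3.32 and 2.65 CPM. Each group had a single library above 5 CPM, and the ranges overlapped almost wholly. The log2 fold change was −0.11 ± 0.211 (SE; edgeR adjusted p = 0.941), and it turned to 0.047 without control-labelled replicate 1. *Rspo4*, on chromosome 2 from 151842927 to 151874668 (plus strand), whose human counterpart is needed for nail formation, gave 2, 5, 1, 1 and 0 counts in the control-labelled and 2, 1, 0, 2 and 1 counts in the mutant-labelled libraries. At this depth it was barely detected, and no fold change is given.

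*Lgr4*, on chromosome 2 from 109917647 to 110014257 (plus strand), encodes the broadly expressed receptor of the family. Control-labelled replicates 1 to 5 held 49.0, 44.3, 51.45, 45.3 and 49.4 CPM, and mutant-labelled replicates 1 to 5 held 44.1, 35.3, 47.4, 32.6 and 43.3 CPM. All 5 mutant-labelled libraries were below the control mean, replicates 2 and 4 far more so than the others, and replicate 3 was within the control range. The means were 47.9 ± 2.99 and 40.5 ± 6.28 CPM, with a coefficient of variation of 6.24% against 15.5%. The log2 fold change was −0.24 ± 0.098 (SE; edgeR unadjusted p = 0.0309, adjusted p = 0.635), and the exact permutation test (log2 CPM, two-sided) gave p = 0.0397. The unadjusted edgeR p rose above 0.05 when control-labelled replicate 1, 3 or 5 or mutant-labelled replicate 2 or 4 was left out, with log2 fold changes as small as −0.16.

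*Lgr6*, on chromosome 1 from 134983301 to 135105276 (minus strand), which marks progenitors of skin and has been used as a marker of osteoprogenitors, was second to *Lgr4* among the members in mean level per length. Its levels in control-labelled replicates 1 to 5 were 47.85, 39.1, 49.4, 56.9 and 48.7 CPM. Those in mutant-labelled replicates 1 to 5 were 31.7, 32.7, 38.35, 29.5 and 37.05 CPM. The groups were separate by a narrow gap, between 38.35 CPM in mutant-labelled replicate 3 and 39.1 CPM in control-labelled replicate 2, while the other 4 control-labelled libraries were at least 47.85 CPM. The fit gave 0.700 of the control level (log2 fold change −0.51 ± 0.0998, SE; edgeR unadjusted p = 2.65e-04, rank 20 among all genes tested, adjusted p = 0.184), and DESeq2's Wald test gave an adjusted p of 0.00215. Adjusted p ranged from 0.00215 to 0.485 over the alternatives tried, while the log2 fold change stayed between −0.57 and −0.45.

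*Lgr5*, on chromosome 10 from 115450311 to 115587780 (minus strand), the stem cell marker of gut and hair follicle, went the other way. Its levels in control-labelled replicates 1 to 5 were 6.82, 9.16, 5.19, 7.23 and 4.10 CPM, from 97 to 267 counts per library. Mutant-labelled replicates 1 to 5 held 11.28, 9.78, 10.96, 10.5 and 8.655 CPM, from 196 to 256 counts. All 5 mutant-labelled libraries were above the control mean, and only control-labelled replicate 2 reached into their range. The mutant-labelled spread (coefficient of variation 10.3%) and the control-labelled spread (29.98%) both exceeded counting error (7.01% at the mean count over all libraries). The fitted ratio was 1.57 (edgeR unadjusted p = 0.00420, adjusted p = 0.411; DESeq2 adjusted p = 0.0827), and the exact permutation test, run in the same way, gave p = 0.0159. Without control-labelled replicate 2, or without mutant-labelled replicate 5, the groups did not overlap.

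The counts of *Lgr5* per count of *Lgr6* do not depend on library scaling. In control-labelled replicates 1 to 5 this ratio was 0.1425, 0.2344, 0.1051, 0.1272 and 0.0842, and in mutant-labelled replicates 1 to 5 it was 0.3563, 0.2993, 0.2857, 0.3559 and 0.2336. The groups met at a single point, where control-labelled replicate 2 was 0.2344 and mutant-labelled replicate 5 was 0.2336, and every other mutant-labelled library was above every control-labelled one. The mean ratio was 0.139 ± 0.0579 by label in controls and 0.306 ± 0.0518 in mutants (SD, n = 5 each), and the mean log2 ratios differed by 1.22, a 2.32-fold difference, against SDs of 0.55 and 0.25. This is a description without a test, since both genes were known to move apart in these libraries. Leaving out each library in turn gave differences of 1.06 to 1.43, the largest without control-labelled replicate 2. Among libraries with *Xist* the difference was 1.19 (3 against 3), and among those with Y-linked transcripts 1.26 (2 against 2). Each receptor was also set against *Lgr4*. The count ratio of *Lgr6* to *Lgr4* was 1.01 ± 0.142 and 0.843 ± 0.0831, and that of *Lgr5* to *Lgr4* was 0.138 ± 0.0490 and 0.257 ± 0.0465, with overlap between groups in both.

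**Figure D2:**
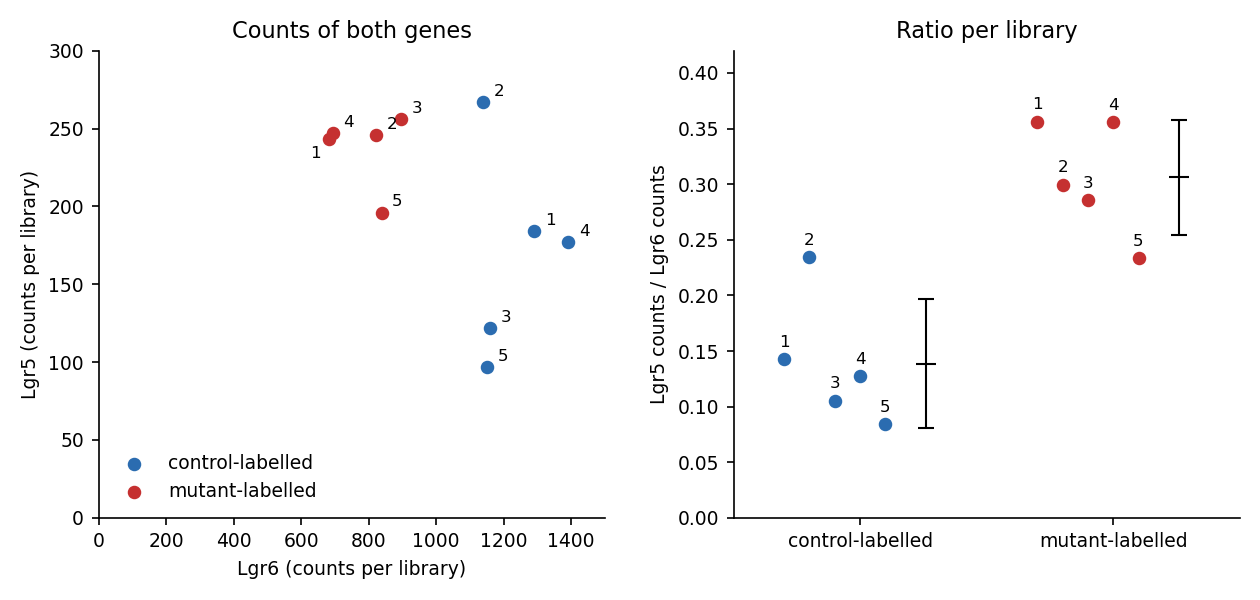
Left, counts per library of *Lgr5* (vertical) against *Lgr6* (horizontal), numbered by replicate. Right, the ratio of these counts per library for control-labelled (blue) and mutant-labelled (red) libraries with the mean ± SD in black, where the groups touch only at control-labelled replicate 2 (0.2344) and mutant-labelled replicate 5 (0.2336).

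The same control-labelled library, replicate 2, had the highest *Lgr5*, the highest *Rspo1*, the lowest *Lgr6*, the lowest *Lgr4* and the highest *Fgfr2* of its group. For *Lgr4*, *Lgr5*, *Lgr6* and *Fgfr2* it was thereby the control-labelled library nearest to the mutant-labelled mean. It also had the most skeletal muscle transcripts of its group (6 genes summing to 522 CPM, group median 48.4 CPM), as mutant-labelled replicate 1, which had the highest *Rspo1* and *Lgr5* of its group, had in the other (467 CPM, group median 46.7 CPM). The part of muscle in these values was not tested. Within libraries of the same sex-linked transcripts, the mean log2 CPM of *Lgr6* differed by −0.55 among those with *Xist* and −0.46 among those with Y-linked transcripts. The same differences were 0.64 and 0.80 for *Lgr5*, −0.22 and −0.30 for *Lgr4*, and 0.48 and 0.18 for *Rspo1*. An interaction of group and sex-linked transcripts in edgeR gave unadjusted p of 0.384 to 0.965 for the 8 tested members (adjusted p of 1 for each). With 3 against 3 and 2 against 2 libraries it could show only a large difference, and no conclusion is drawn from it.

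Of the ligases, *Znrf3*, on chromosome 11 from 5276324 to 5444847 (minus strand), was the main transcript. It was at 17.4, 15.3, 14.4, 12.4 and 12.1 CPM in control-labelled replicates 1 to 5 and at 15.7, 13.9, 16.2, 11.5 and 17.1 CPM in mutant-labelled replicates 1 to 5, with a log2 fold change of 0.06 ± 0.126 (SE; edgeR adjusted p = 0.944). *Rnf43*, on chromosome 11 from 87662722 to 87735539 (plus strand), its close relative, was at 1.00, 1.68, 2.08, 1.185 and 0.8875 CPM against 1.30, 1.39, 1.24, 0.6385 and 1.24 CPM, on 15 to 49 counts per library. Both genes overlapped between groups. For *Rnf43* counting error alone amounts to 18.0%, and its log2 fold change was −0.23 ± 0.290 (SE; edgeR adjusted p = 0.886).

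Levels of different genes were compared per length, as CPM per kilobase of exon (RPKM). The length was the union of annotated exons, 10264 bases for *Lgr5* and 5112 for *Rspo2*, and orders and shares depend on this choice. In the control-labelled libraries the order of mean RPKM was *Lgr4* (8.14), *Lgr6* (7.06), *Rspo3* (3.93), *Rspo1* (2.38), *Znrf3* (1.81), *Rspo2* (0.786), *Lgr5* (0.633), *Rnf43* (0.209, with 0.135 to 0.318) and *Rspo4* (0.0278). Neighbours whose ranges overlapped were *Lgr4* and *Lgr6*, *Rspo3* and *Rspo1*, *Rspo1* and *Znrf3*, and *Rspo2* and *Lgr5*. In the mutant-labelled libraries *Lgr4* (6.89), *Lgr6* (4.94), *Rspo3* (4.01), *Rspo1* (2.95) and *Znrf3* (1.89) kept these places, while *Lgr5* (0.997) stood before *Rspo2* (0.729) with overlapping ranges. There *Lgr6* overlapped *Rspo3*, which it did not among the control-labelled libraries.

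As shares of the summed LGR RPKM, *Lgr4* made up 51.5 ± 3.05% by label in controls and 53.5 ± 2.45% in mutants, *Lgr6* 44.45 ± 3.36% and 38.6 ± 2.24%, and *Lgr5* 4.06 ± 1.46% and 7.86 ± 1.21%. The receptor transcripts were thus mostly *Lgr4* and *Lgr6* in every library, with *Lgr5* the least at 2.51% to 9.42%. The LGR sum was 15.8 ± 1.02 RPKM (14.1 to 16.7) and 12.8 ± 1.53 RPKM (10.9 to 14.7), overlapping only where control-labelled replicate 2 lay below mutant-labelled replicate 3. Of the R-spondin sum, 7.12 ± 1.14 and 7.72 ± 0.956 RPKM, *Rspo3* made up 55.8 ± 5.97% and 52.3 ± 3.73%, *Rspo1* 32.5 ± 8.46% and 37.9 ± 5.61%, and *Rspo2* 11.3 ± 3.001% and 9.53 ± 2.65%. LGR RPKM per R-spondin RPKM was 2.28 ± 0.449 and 1.68 ± 0.264, and the groups overlapped. *Znrf3* held 89.7 ± 3.24% and 91.5 ± 1.63% of the ligase RPKM.

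**Figure D3:**
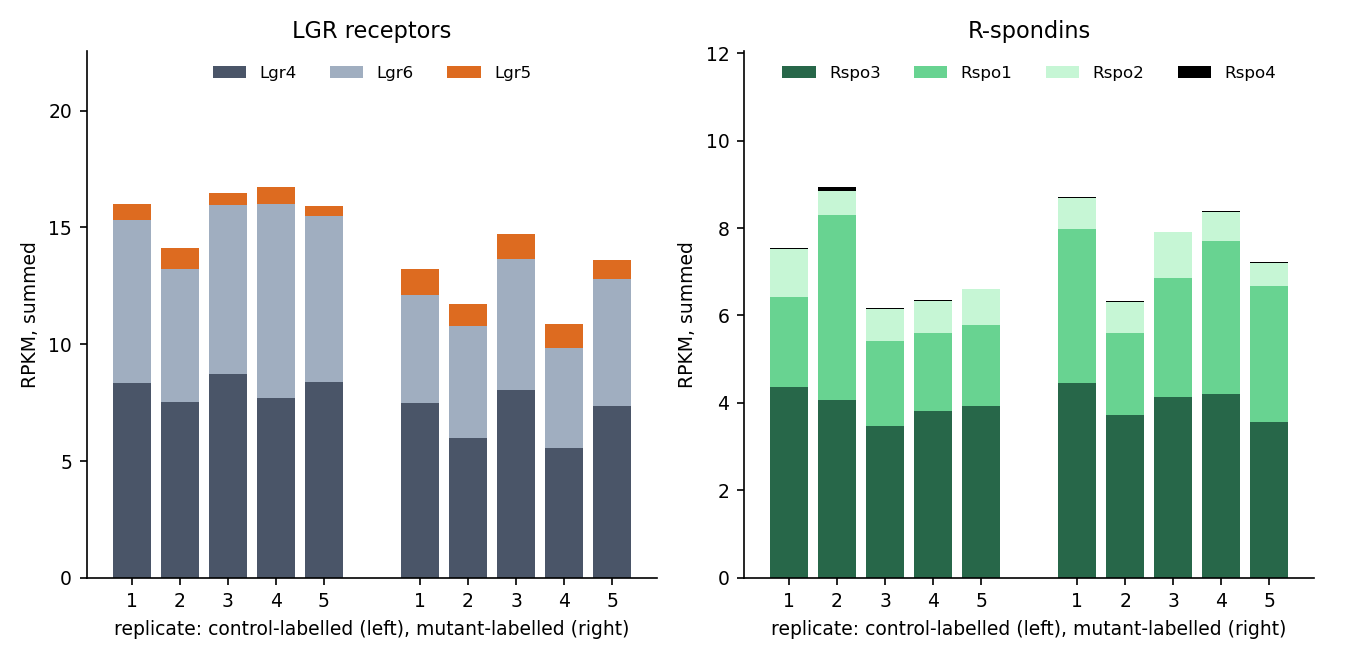
RPKM summed over the 3 LGR receptors (left) and the 4 R-spondins (right), 1 stacked bar per library, with control-labelled replicates to the left and mutant-labelled ones to the right in each panel. *Lgr4* and *Lgr6* fill most of each receptor bar, the *Lgr5* segment is 2.51% to 9.42%, and *Rspo3* and *Rspo1* fill most of each ligand bar.

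The proteins on which the ligases act were followed through 12 genes, the Frizzled receptors *Fzd1* to *Fzd10* and the co-receptors *Lrp5* and *Lrp6*. All 12 were tested, none passed the adjusted threshold in edgeR or in DESeq2, and 1 had an unadjusted edgeR p under 0.05 (against 7.49% of all genes). That gene was *Fzd2*, at 81.8 ± 8.55 and 95.7 ± 8.95 CPM (log2 fold change 0.23, adjusted p = 0.6196 by edgeR's quasi-likelihood test), followed by *Lrp6* at 163 ± 15.2 and 183 ± 23.1 CPM (0.16, adjusted p = 0.716). Fold changes were positive for 10 of the 12, with a median log2 value of 0.086 beside 0.00073 for all genes tested. The 3 Dishevelled genes, which carry the signal from Frizzled and help the ligases to find it, had none past either threshold in edgeR and none past the adjusted one in DESeq2, and *Dvl2* (0.04) and *Dvl3* (0.02) had the lowest p. Of 7 genes for other surface proteins that bind R-spondins, the syndecans *Sdc1* to *Sdc4*, the glypicans *Gpc3* and *Gpc4* and the BMP receptor *Bmpr1a*, none passed these thresholds, with a median of 0.02 and log2 fold changes of −0.08 for *Sdc4* and 0.12 for *Gpc3*.

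Feedback targets of WNT/β-catenin signaling were represented by 8 genes, of which 7 were tested and *Sp5* was not. None passed the adjusted threshold in edgeR, 1 (*Notum*) passed it in DESeq2 (against 0.615% of all genes), and at the unadjusted edgeR threshold 1 was higher (against 3.68%) and 1 lower (against 3.82%). *Nkd1*, an inhibitor that binds Dishevelled, was at 24.5 ± 3.28 and 31.8 ± 4.15 CPM (log2 fold change 0.37, edgeR adjusted p = 0.445). *Notum*, an enzyme that inactivates WNT ligands, was at 4.65 ± 1.02 and 2.86 ± 0.279 CPM (−0.70, edgeR adjusted p = 0.307, DESeq2 adjusted p = 0.0392). Fold changes were positive for 5 of the 7 tested, including *Axin2* (0.20, edgeR adjusted p = 0.718), and negative for *Notum* and *Tcf7*, with a median log2 value of 0.093. Secreted WNT antagonists, 11 of 12 in the table (*Dkk4* was not listed), had none past the adjusted threshold in edgeR, 1 higher (against 3.68% of all genes) and 5 lower (against 3.82%) at an unadjusted p under 0.05, and a median of −0.29. DESeq2's Wald test passed *Sfrp4* and *Wif1* as lower and *Sfrp2* as higher, against 0.615% of all genes. The lowest edgeR p were those of *Sfrp4* (−0.74, edgeR adjusted p = 0.208) and *Wif1* (−0.36, adjusted p = 0.302).

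**Figure D4:**
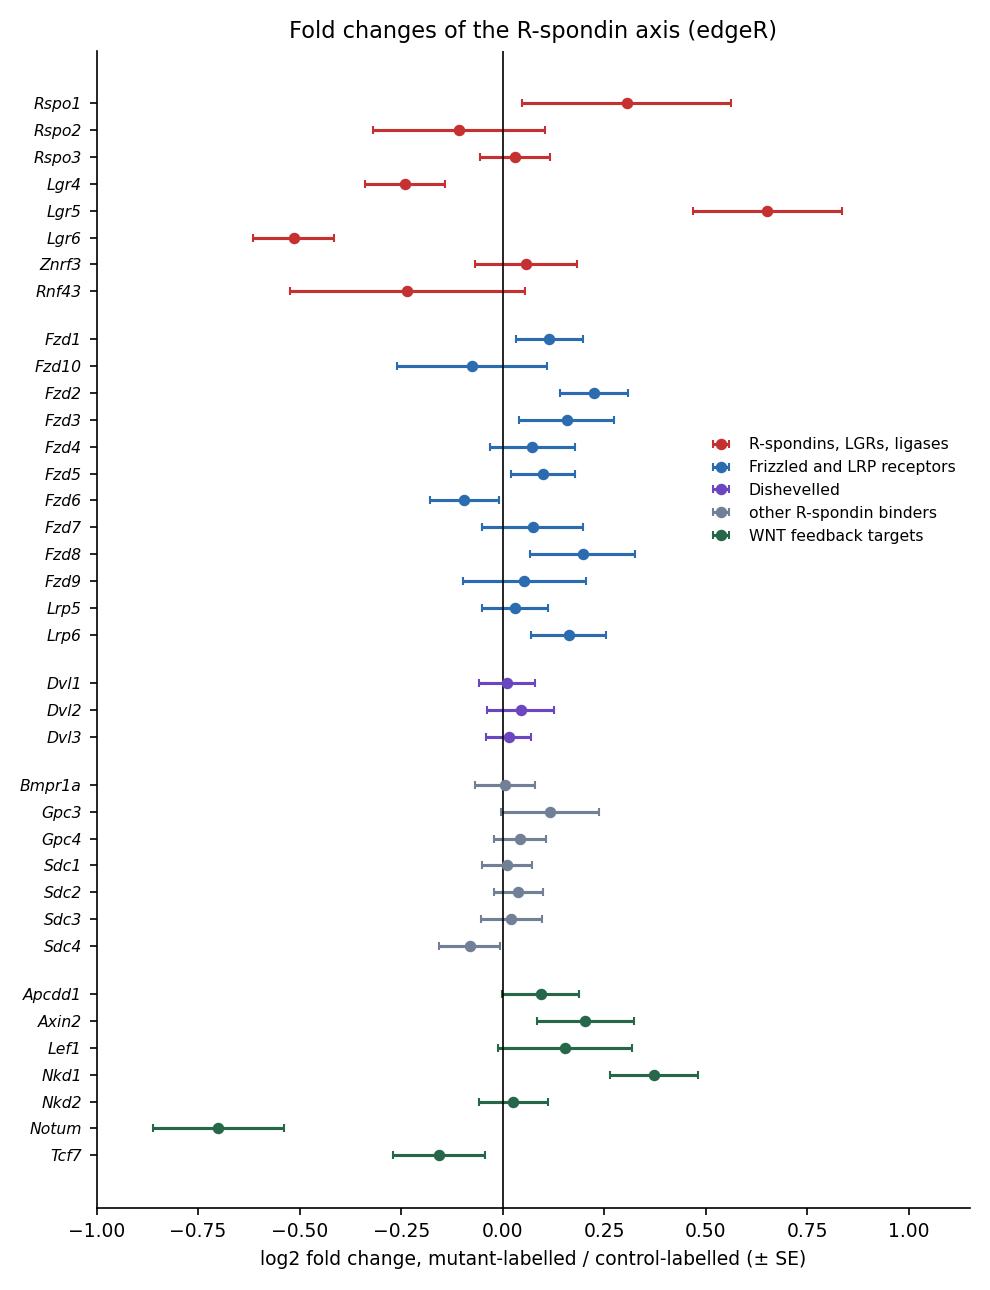
Log2 fold change of mutant-labelled over control-labelled libraries (horizontal axis, points) with its SE (bars) from edgeR for the 8 tested members and the tested genes of 4 lists of the same pathway. *Lgr5* (0.65) and *Lgr6* (−0.51) lie on opposite sides of 0, while the Frizzled, LRP, Dishevelled and other binding proteins lie within −0.09 to 0.23.

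Marker lists of the AF connective tissue and of osteoblasts held several genes with a low unadjusted p. Of 6 genes of the AF connective tissue (*Scx*, *Tnmd*, *Mkx*, *Matn4*, *Fmod* and *Thbs4*), 4 were higher by label at an unadjusted p under 0.05 (against 3.68% of all genes) and none lower, and their summed level was 395.5 to 458.8 CPM by label in controls and 467 to 637 CPM in mutants. Of 10 osteoblast genes, 6 were lower (against 3.82%) and none higher, with a median log2 fold change of −0.31. None of either list passed the adjusted threshold in edgeR, while DESeq2's Wald test passed 2 connective tissue genes as higher (*Matn4* and *Tnmd*) and 4 osteoblast genes as lower (*Dmp1*, *Alpl*, *Ibsp* and *Spp1*), against 0.615% of all genes. Summed osteoblast genes, dominated by *Col1a1*, overlapped between groups. *Lgr5* had its higher mean on the side of the connective tissue genes and *Lgr6* on the side of the osteoblast genes, and the part of tissue make-up in their values was not tested. Epidermis, where *Lgr6* is a known marker, was nearly absent, as 6 of its 9 markers were listed and summed to 4.41 to 7.48 CPM and 4.37 to 8.19 CPM, with *Krt14* and *Trp63* too low to test. Neuron genes summed to 52.3 to 140 CPM and 53.4 to 481 CPM, highest in mutant-labelled replicate 2, with medians of 121.9 and 117.7 CPM. Of the 7, 1 (*Neurod6*) was higher at an unadjusted p under 0.05 (against 3.68% of all genes), none passed the adjusted threshold in edgeR or DESeq2, and all 7 fold changes were positive, with a median log2 value of 0.80. Skeletal muscle genes summed to 14.1 to 522 CPM and 12.9 to 467 CPM, highest in control-labelled replicate 2 and mutant-labelled replicate 1. None of the 6 endothelium, 6 meninges, 6 Schwann cell and 5 tested muscle genes had an unadjusted p under 0.05. Of the 6 chondrocyte genes only *Col2a1* did, as higher by label (against 3.68% of all genes). It was at 56.2 ± 8.91 and 103.5 ± 34.56 CPM (log2 fold change 0.88) and also passed DESeq2's adjusted threshold (against 0.615%). Fold changes were positive for 4 of the 6 chondrocyte genes. No listed marker in the table was at 0 in all libraries.

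The genes whose log2 CPM over the 10 libraries was most like that of *Lgr5*, among 14470 with a mean of at least 1 CPM, were *Tert* (Pearson r = 0.935), *Ubtd2* (0.911) and *Fbxo27* (0.909). For *Lgr6* they were *Cpe* (0.971), *Tmco1* (0.967) and *Wif1* (0.957). The points share the difference between groups and the scaling of each library, and the values are a description over 10 libraries. *Wif1*, a secreted inhibitor that binds WNT ligands, was at 259 ± 21.8 and 202 ± 20.0 CPM and was separate between groups, as *Lgr6* was.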

How the data were processed

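Bulk RNA-seq libraries of the E18.5 AF (Kapa stranded kit, single reads per the labels) were grouped by their labels, 5 control-labelled and 5 mutant-labelled. The authors made and deposited 1 table of estimated counts per gene, which they had not scaled between libraries. Of its values 66.4% were whole, the lowest sum of a gene was 10, and every column belonged to a labelled library. The submitters' processing notes name Partek and mm10. The aligner, counting tool and strand setting were not given in the sources used here. Estimated counts were rounded to whole numbers. After filterByExpr of edgeR (16267 genes tested, 6813 left out) and TMM scaling, the groups were compared with edgeR's quasi-likelihood test without covariates (R 4.3.3, edgeR 4.0.16, limma 3.58.1), with Benjamini-Hochberg adjustment over all genes tested and a threshold of 0.05. DESeq2 1.42.0 was an alternative. Log2 CPM used a prior count of 0.5, and single genes were compared by two-sided exact permutation tests over 252 groupings, which cannot give a p under 0.00794. RPKM used the union of exons in GENCODE M21. Figures were drawn in Python 3.11.15.

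The 9 members, the pathway lists and the marker lists were chosen with earlier results of these data known. Named genes were all members, *Fgfr2*, the 2 genes of lowest p in each pathway list, and the 3 genes most correlated with *Lgr5* and with *Lgr6* at a mean of at least 1 CPM. *Axin2*, *Tcf7*, *Sfrp2* and single genes of the marker lists were named after their values were seen. Alternatives were scaling by library size alone or by the size factors of DESeq2, its Wald test, a filter of at least 10 counts per gene in all libraries or none, a block on replicate number, a table without 6 ribosomal RNA genes, and leaving out each library in turn. Sex-linked transcripts as a covariate were added after seeing the data.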

Additional observations from a re-analysis of the deposited data

Results flagged for a closer look

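Each member in each group of 5, and the *Lgr5* to *Lgr6* ratio, was checked for a library far from the others, with a gap above 0.71 of the group's range (Dixon's 95% critical value for 5). In 20 groups checked, chance alone marks about 1 in 20, and 2 were found. *Rspo1* was at 8.20 CPM in control-labelled replicate 2, while the other control-labelled libraries were at 3.47 to 4.003 CPM, and its log2 fold change of 0.31 became 0.63 without that library. *Rnf43* was at 0.6385 CPM in mutant-labelled replicate 4, on 15 counts, while the other mutant-labelled libraries were at 1.24 to 1.39 CPM. Control-labelled replicate 2 also had the highest summed skeletal muscle genes of its group (522 CPM, group median 48.4 CPM), whose part in the *Rspo1* value was not tested.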

How the results depend on the processing

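Over 18 alternatives for each of the 8 tested members, 141 of 144 log2 fold changes kept their direction. *Rspo2* turned to 0.047 without control-labelled replicate 1, and *Rspo3* to −0.0095 with library size alone and −0.0025 without control-labelled replicate 3, within −0.27 to 0.047 and −0.0025 to 0.078 when each library was left out. *Lgr5* and *Lgr6* stayed under an unadjusted p of 0.05 in all alternatives, with log2 fold changes of 0.53 to 0.82 and −0.57 to −0.45 when each library was left out. Adjusted p ranged from 0.0827 to 0.748 for *Lgr5*, from 0.00215 to 0.485 for *Lgr6* and from 0.423 to 0.930 for *Lgr4*. Members past the adjusted threshold numbered 1 (*Lgr6*) with DESeq2's Wald test and 0 in all other fits. At the unadjusted threshold, leaving out each library gave 2 to 4 members, with *Rspo1* joining the 3 receptors without control-labelled replicate 2. Of all genes tested, 855 to 1370 passed it in these fits, against 1219 in the reported comparison. The highest number, 1370 of 16426, was without control-labelled replicate 2. Members without overlap numbered 2 with library size alone (*Lgr4* and *Lgr6*) and 1 to 2 with each library left out, while 194 genes of all tested were without overlap with library size alone and 314 to 481 with each library left out, against 241 in the reported comparison. The second member was *Lgr5* without control-labelled replicate 2 or mutant-labelled replicate 5 and *Lgr4* without mutant-labelled replicate 3. Among all genes, those past the adjusted threshold numbered 3, but 98 with DESeq2's Wald test, 1 with library size alone, 1 with the replicate block, 1 with *Xist* or Y-linked transcripts as a covariate (chosen after seeing the data), and 1 to 6 with each library left out, the highest without mutant-labelled replicate 2. With the replicate block, *Lgr4*, *Lgr5* and *Lgr6* kept an unadjusted p under 0.05 (1076 of all 16267 genes did) and no member passed the adjusted threshold. The paper describes littermate pairs, but which libraries form a pair was not stated. Same-numbered libraries correlated with r of −0.211 to 0.139 in their deviations from the group means, and 0 libraries matched their own number best. The numbers were therefore not taken to pair them, and the reported fit leaves out any litter pairing. This check cannot exclude that same-numbered libraries were littermates. The causes of these changes were not tested. Depth limits *Rspo4* (0 to 5 counts per library) and *Rnf43* (15 to 49 counts) most, and library size alone moved the median log2 fold change of all genes to −0.038.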
